A study of Drosophila melanogaster with 2 samples.

Results

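The genes described here encode the protein factors that drive the steps of cytoplasmic translation, and the question was which of their promoters carried CG18476, a chromatin-associated protein, in fly embryos. They were chosen as the protein-coding genes whose symbol begins with eIF (initiation), eEF (elongation) or eRF (release), which gave 54 of the 13945 protein-coding genes on the 6 chromosome arms. Chromatin was immunoprecipitated and sequenced (ChIP-seq) from whole Drosophila melanogaster embryos of both sexes, collected from 0 to 24 h. The flies carried a transgene that adds eGFP, a green fluorescent protein, to the carboxyl end of CG18476, and chromatin was recovered with an antibody against GFP. There was 1 group of 2 libraries, biological replicates 1 and 2, so no test between groups was possible, and every count and value below is a description. Whole embryos mix all tissues and stages of that period, so a signal cannot be assigned to a cell type, and an untagged strain was not analysed here.

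Translation begins when eIF4E binds the mRNA cap and recruits eIF4G and the helicase eIF4A, while eIF2 brings the initiator tRNA and the large eIF3 complex holds the small ribosomal subunit. eIF1, eIF1A and eIF5 act in the choice of the start codon, eIF5B joins the large subunit, eEF1 and eEF2 move tRNAs through the ribosome, and eRF1 with eRF3 ends the chain at a stop codon. The steps that these factors carry out are needed in nearly every cell. In flies several of the factors are also encoded by second copies, which the choice by symbol includes. Whether each chosen gene is itself needed in most cells was not tested.

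A promoter peak here is a peak of the authors' thresholded dm6 set whose summit lies within 500 bp of any transcription start site (TSS) of the gene. Of the 54 translation factor genes, 16 (29.6%) had one, against 17.7% of all protein-coding genes (2468 of 13945), and the 16 genes held 18 peaks. The 16 are eIF6, eIF4EHP, eEF1gamma, eIF3c, eIF1, eIF3h, eRF1, eEF1alpha1, eRF3, eIF2beta, eIF3m, eIF2D, eIF1A, eIF4A, eIF3a and eIF5B. The thresholded set was exactly the 3995 strongest of the 30000 regions of the authors' list for the pooled reads, so a gene had a promoter peak when its pooled signal was at least 60.6. The signal is the authors' own value for a region and is not scaled to a common depth. Sequencing depth is unknown from these lists, so no value carries an error from read counting. For the 18 peaks the signals of replicates 1 and 2 are given as the measure of spread. Most other signals below are given for the pooled reads alone, without a spread.

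The sequences under 6 of the promoter peaks are shown because they carry the motif that recurred at these genes or, for the last 2, TATAAA without it. All come from the RefSeq assembly of dm6, read 5′ to 3′ on the strand of the translation factor gene, and none includes annotated exon. Capitals mark TATCGATA, the DNA replication-related element (DRE) recognised by the transcription factor Dref, or its core ATCGAT in the first 4, and TATAAA on either strand in the last 2. The first is the eEF1gamma peak up to the TSS (chr3R:29220029-29220171), the second the eIF1 peak from the neighbouring RpL28 TSS (chr3L:3222961-3223101), and the next 2 all bases between the TSSs of eIF3a and CG1074 (chr3R:4433896-4433964, minus strand) and of Vps39 and eIF1A (chr3R:18274447-18274664). The last 2 are windows at the summits of eIF4EHP (chr3R:24109085-24109235, minus strand) and eRF3 (chr2L:12434183-12434283).
eEF1gamma: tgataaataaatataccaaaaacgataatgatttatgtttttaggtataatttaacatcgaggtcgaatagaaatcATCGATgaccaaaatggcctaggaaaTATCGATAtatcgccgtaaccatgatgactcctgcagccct
eIF1: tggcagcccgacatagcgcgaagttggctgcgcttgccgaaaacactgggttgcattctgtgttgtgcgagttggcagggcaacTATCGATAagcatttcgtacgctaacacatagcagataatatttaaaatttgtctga
eIF3a: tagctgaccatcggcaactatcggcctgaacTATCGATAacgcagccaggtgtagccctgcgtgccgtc
eIF1A: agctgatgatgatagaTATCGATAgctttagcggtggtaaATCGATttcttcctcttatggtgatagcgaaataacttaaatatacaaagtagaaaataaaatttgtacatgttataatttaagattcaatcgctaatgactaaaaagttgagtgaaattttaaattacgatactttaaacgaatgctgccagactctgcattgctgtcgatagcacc
eIF4EHP: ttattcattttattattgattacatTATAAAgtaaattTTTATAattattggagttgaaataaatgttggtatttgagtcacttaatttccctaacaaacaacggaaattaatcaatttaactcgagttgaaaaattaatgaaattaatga
eRF3: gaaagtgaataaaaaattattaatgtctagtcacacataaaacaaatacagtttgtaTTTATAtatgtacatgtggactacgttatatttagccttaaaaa
The eEF1gamma stretch holds the full element once and the core a second time, with centres 33.5 and 6.50 bp from the summit. At eIF1 the element lay 19.5 bp from the summit, at eIF3a 21.5 bp, and at eIF1A 52.5 bp, with a further core at 29.5 bp. The eIF4EHP and eRF3 windows hold neither, and their G+C contents as shown were 20.5% and 23.8%. The eIF4EHP window shown is the wider one, so these values are not directly comparable. With 50 bp to each side of the summit, the G+C content was 23.8% at both genes.

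Cap binding and unwinding factors held the second strongest promoter peak among all 54 genes. It lay at eIF4EHP, which encodes a cap-binding protein that in the fly embryo represses caudal mRNA together with Bicoid. The eIF4EHP peak (chr3R:24109009-24109389) had a pooled signal of 373, rank 138 of 3995, with 150.3 in replicate 1 and 225 in replicate 2. Its summit lay between eIF4EHP and the divergent gene CG18428, 200 bp upstream of the eIF4EHP TSS and 176 bp upstream of that of CG18428. The long introns of eIF4EHP held another 2 thresholded peaks, 2502 bp and 9784 bp downstream of its TSS, with signals of 119 (63.4 in replicate 1 and 56.7 in replicate 2) and 137 (68.7 and 73.9 in the same order).

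The gene of the helicase eIF4A was the other of the 13 cap binding and unwinding genes with a promoter peak. Its peak (chr2L:5981116-5981545) had a signal of 65.9, with 40.5 in replicate 1 and 23.8 in replicate 2. The summit lay 433 bp upstream of the eIF4A TSS, farther than that of any other peak of the 16 genes, and 313 bp from the TSS of chic, the profilin gene on the other strand. The cap-binding factor gene eIF4E1 and the scaffold genes eIF4G1, on chromosome 4, and eIF4G2 had regions under the threshold, with pooled signals of 30.4, 36.0 and 35.1. Of the other cap-binding paralogs, eIF4E3, eIF4E5 and eIF4E6 were listed in replicate 1 alone, at signals from 7.77 to 13.0, and eIF4E4 and eIF4E7 in no list. The genes of the helicase cofactors were likewise without a pooled region: eIF4H1 had weak regions in each replicate (13.6 in replicate 1 and 14.3 in replicate 2), and eIF4B and eIF4H2 had none. The thresholded summit nearest to the eIF4B TSS was 4979375 bp away.

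Scanning, start codon choice and subunit joining had promoter peaks at 4 of 5 genes. The highest signal of all 54 genes lay at eIF6, whose protein keeps the large ribosomal subunit from joining too early. The eIF6 peak (chr2R:23850257-23850539) had a pooled signal of 444, among the strongest 2.53% of the thresholded set, with 153 in replicate 1 and 289 in replicate 2. Its summit lay 98 bp upstream of the eIF6 TSS, in an exon of asRNA:CR45928 and within an intron of ytr, and 69 bp from the TSS of that antisense RNA. Both replicates ranked it high, at 173 and 76 of their 30000 regions in the order of their numbers, although replicate 2 held 1.89-fold the signal of replicate 1.

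At eIF1, which guards start codon choice, 2 overlapping peaks had summits in the 381 bp between its TSS and that of RpL28, a ribosomal protein gene on the other strand. The stronger (chr3L:3222941-3223101) reached 178, with 87.5 and 88.7 in replicates 1 and 2, and its summit was 69 bp from RpL28 but 312 bp from eIF1. The weaker (chr3L:3223013-3223442) had 93.1, with 44.8 and 45.2 in the same order, and its summit was 113 bp upstream of eIF1 and 268 bp from RpL28. The deposited replicate values, not scaled to a common depth, differed by less at both summits than at any other gene of the 16. By rank the stronger peak was at 586 in replicate 1 and 883 in replicate 2, and the weaker at 2045 and 2673.

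eIF1A, a partner of eIF1 on the small subunit, and eIF5B, the GTPase of subunit joining, had peaks near the lower end of the set. The eIF1A peak (chr3R:18274304-18274733) had a signal of 67.4, with 29.3 in replicate 1 and 37.6 in replicate 2, and lay in the 219 bp that separate eIF1A from Vps39. The eIF5B peak (chr3L:3460530-3460959) had 61.5, the lowest of the 18, with 41.9 in replicate 1 and 21.0 in replicate 2, and its summit was in a 5' UTR of the gene. A further pair of thresholded peaks lay in introns of eIF5B, 21975 bp and 27696 bp downstream of the TSS, with signals of 75.1 and 113. The gene of eIF5, which stimulates GTP hydrolysis by eIF2, had 22.2 in the pooled list, under the threshold.

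Of the 10 genes for eIF2, its exchange factor eIF2B and the alternative tRNA carriers, 2 had a promoter peak. eIF2beta, an eIF2 subunit gene (chr3L:12526814-12527243), had a signal of 88.1, with 30.2 in replicate 1 and 52.8 in replicate 2, and a summit 298 bp upstream. eIF2D, whose protein can deliver tRNA without eIF2 (chr3R:29151697-29152126), had 71.6, with 41.6 in replicate 1 and 31.8 in replicate 2. The other 2 subunits of eIF2 showed little: eIF2alpha was listed in replicate 1 alone, at 16.0, and eIF2gamma in no list. eIF2A had a weak pooled region of 26.0.

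None of the 5 eIF2B subunit genes had a promoter region in the pooled list. eIF2Balpha, eIF2Bgamma and eIF2Bepsilon were listed in replicate 1 alone, with signals from 8.81 to 9.67, and eIF2Bbeta and eIF2Bdelta in no list. The gene nearest outside the distance limit was eIF2Bbeta: the peak at the promoter of Ugalt, rank 7 of 3995 with a signal of 1328, had its summit 688 bp upstream of the eIF2Bbeta TSS, outside the 500 bp.

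The 16 genes for subunits of eIF3, the scaffold of the preinitiation complex, had promoter peaks at 4. eIF3c (chr2R:17665466-17665895) had a signal of 183, with 103 in replicate 1 and 83.1 in replicate 2, and its summit lay 3 bp downstream of a TSS, the closest of the 18. At eIF3h 2 overlapping peaks had their summits on the gene side of the TSS, next to the divergent gene senju, whose TSS is 63 bp away. Their signals were 152 (chr2L:5052294-5052723, 63.2 in replicate 1 and 89.0 in replicate 2) and 146 (chr2L:5052523-5052952, 74.7 in replicate 1 and 67.6 in replicate 2), with summits 271 bp and 42 bp downstream.

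eIF3m (chr2R:14164746-14165175) had a signal of 87.5, with 20.3 in replicate 1 and 50.3 in replicate 2, the largest ratio of the 18 peaks at 2.48. Replicate 1 held a stronger region, at 44.7, elsewhere in the same promoter. eIF3a, which encodes the largest scaffold subunit (chr3R:4433736-4434165), had 64.3, with 27.1 in replicate 1 and 37.2 in replicate 2, and its summit lay between TSSs only 70 bp apart, 56 bp from that of eIF3a and 14 bp from that of CG1074.

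Regions under the threshold lay at another 5 eIF3 genes: eIF3l with 45.3, eIF3e with 32.3, eIF3b with 19.9, eIF3d1 with 18.8 and eIF3k with 16.2. The remaining 7 were in no list: eIF3f1, eIF3g1, eIF3i and eIF3j, and the second copies eIF3d2, eIF3f2 and eIF3g2. Signals within this complex therefore spanned from no listed region to 183.

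Of the 8 elongation factor genes, 2 had a promoter peak. eEF1gamma encodes a subunit of the complex that recharges eEF1alpha with GTP. Its peak (chr3R:29220029-29220199) had a signal of 223, rank 450 of 3995, with 100.6 in replicate 1 and 121 in replicate 2, and was only 171 bp wide. eEF1alpha1, which encodes the carrier of aminoacyl-tRNA (chr2R:11891816-11892245), had 94.0, with 27.1 in replicate 1 and 65.2 in replicate 2. The eEF1alpha1 summit lay 91 bp upstream of 1 of its 4 TSSs, in an intron of the gene.

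The other elongation factor genes did not reach the threshold. eEF5, the fly gene for the factor known elsewhere as eIF5A, had 51.5, the highest signal of any of the 54 genes under the threshold. eEF1beta had 40.7, eEF1alpha2, the second eEF1alpha gene, had 39.7, and eEF2, the translocase gene, had 30.7. eEF1delta was listed in replicate 1 alone, at 9.97, and eEFSec, for selenocysteine incorporation, in no list.

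Both release factor genes had a promoter peak. eRF1, whose protein reads the stop codons (chr3L:20348044-20348473), had a signal of 125, with 58.4 in replicate 1 and 62.0 in replicate 2, 96 bp upstream and 317 bp from the divergent Rbbp5. eRF3, the gene of its GTPase partner (chr2L:12434018-12434447), had 88.5, with 33.2 in replicate 1 and 64.7 in replicate 2. The eRF3 summit lay 219 bp upstream, in an intron of SC35, a splicing factor gene, and 195 bp from the nearest SC35 TSS.

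**Figure D1:**
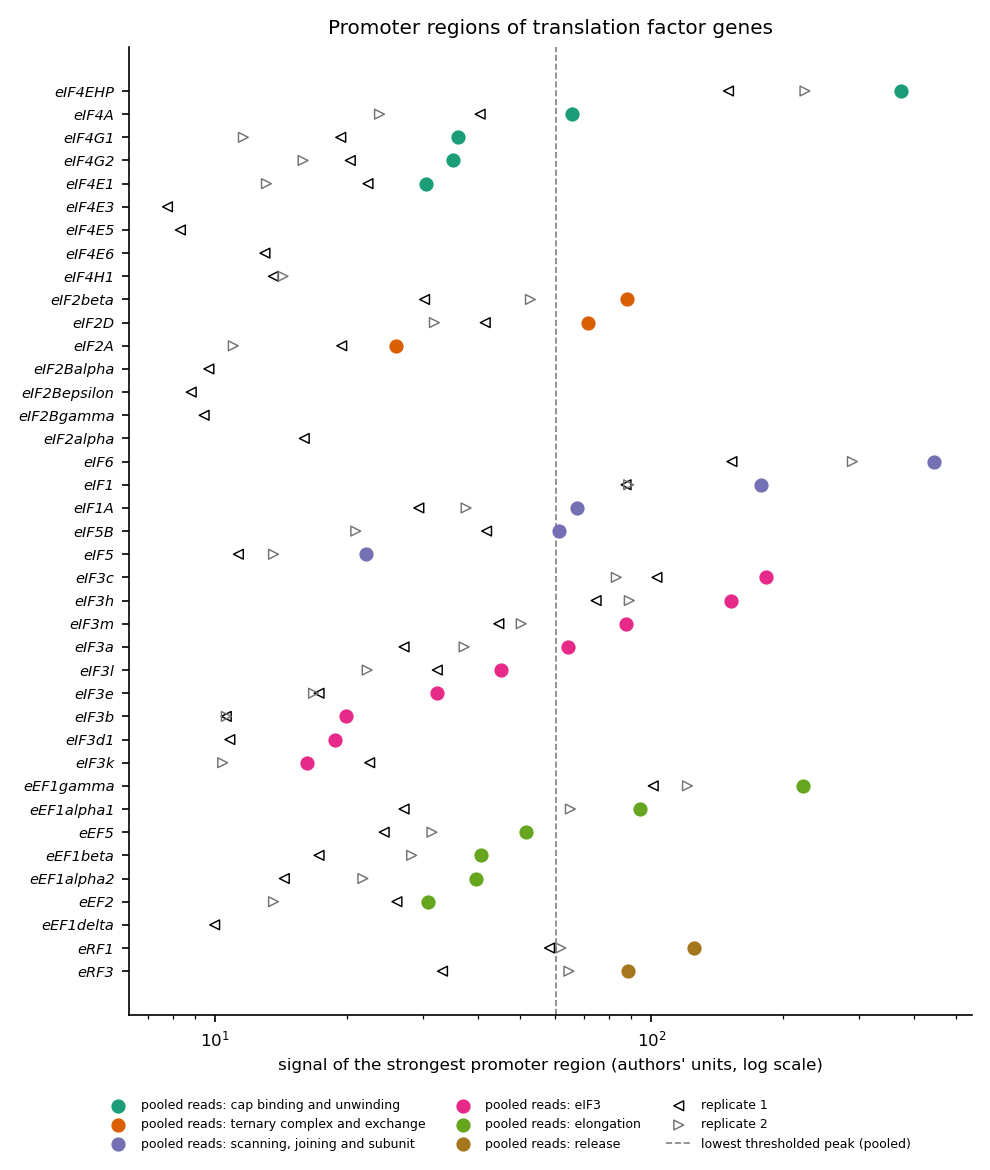
Signal of the strongest promoter region of each translation factor gene that is in at least 1 list, on a log axis in the authors' units, grouped by role. Filled circles are the pooled reads, open triangles pointing left replicate 1 and pointing right replicate 2, and the dashed line is the lowest thresholded peak at 60.6. The 16 genes to its right run from eIF5B at 61.5 to eIF6 at 444, and 15 further genes in no list are not drawn.

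The lists under the threshold showed how far the rest of the genes were from a peak. In the pooled list 30 of the 54 genes (55.6%) had a promoter region, against 50.1% of all protein-coding genes. The list of replicate 1 held 39 of them (72.2%, against 51.7% of all), that of replicate 2 held 30 (55.6%, against 47.7%), and 30 were in both replicate lists (55.6%, against 38.7%). In all 3 lists together there were 29 (53.7%, against 37.7%), and 15 were in none. Among genes with any pooled promoter region, 16 of 30 translation factor genes (53.3%) reached the thresholded set, against 35.3% of all 6985 such genes. Each of these lists held 30000 regions, down to signals of 14.5 in the pooled list, 7.66 in replicate 1 and 9.52 in replicate 2, so many regions in them are weak.

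The signals of the 18 peaks were of ordinary size for promoter peaks. Their median was 93.5 (interquartile range 75.6 to 172), against 104 (77.0 to 165) for the other 2004 promoter peaks. Of the 18 peaks, 8 were among the strongest 1997 of the thresholded set. None came near the strongest promoter peak of the genome, at 1948.

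Agreement between the replicates was also like that of other promoter peaks. The authors chose the thresholded set for reproducibility, so a high match in both groups of peaks was partly set in advance. With an overlap of at least 0.5 of both lengths, 16 of the 18 peaks (88.9%) were matched in both replicate lists, against 87.7% of the other promoter peaks. The other 2, at eEF1gamma and the stronger eIF1 peak, are narrow in the pooled list, at 171 and 161 bp, and overlapped a region in each replicate by at least 1 bp, from which the values above come. Replicate 2 divided by replicate 1 gave a median of 1.24 (interquartile range 0.930 to 1.69), from 0.502 at eIF5B to 2.48 at eIF3m. At the other promoter peaks the median was 1.21 (0.956 to 1.52).

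**Figure D2:**
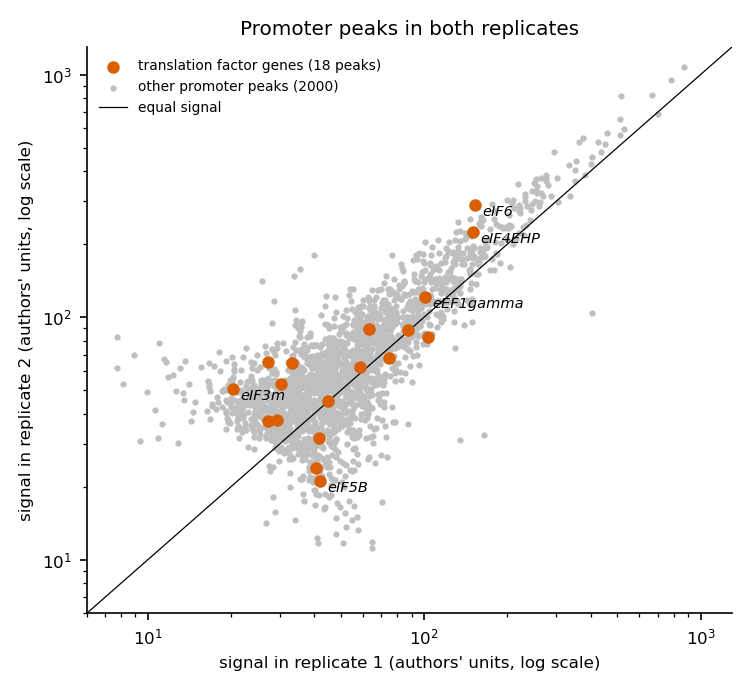
Signal in replicate 2 against signal in replicate 1 for promoter peaks, both in the authors' units on log axes. Large points are the 18 peaks of translation factor genes, small points the other 2000 promoter peaks found in both lists, and the line marks equal signal. eIF6 and eIF4EHP lie in the upper part, and the weaker peaks scatter from eIF3m above the line to eIF5B below it.

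The count of genes with a promoter peak depended in part on which replicate was used and on the threshold. With the 3995 strongest regions of replicate 2 alone it was 13 of 54 (24.1%, against 17.0% of all genes), without eIF2D, eIF4A and eIF5B. With those of replicate 1 alone it was 15 (27.8%, against 18.6%), without eEF1alpha1 and eIF3a and with eIF3l added. In the strongest 1997 thresholded peaks 7 remained (13.0%, against 10.2%): eIF6, eIF4EHP, eEF1gamma, eIF3c, eIF1, eIF3h and eRF1. A promoter distance of 250 bp gave 14 (25.9%, against 13.9%), without eIF2beta and eIF4A, and 1000 bp gave 17 (31.5%, against 20.4%), with eIF2Bbeta added. Counting only the most upstream TSS gave 15 (27.8%, against 15.6%), without eEF1alpha1, and peak midpoints gave the same 16 genes (29.6%, against 17.7%).

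Other gene families of protein synthesis gave a scale for these counts. Against the 29.6% of translation factor genes, promoter peaks lay at 52 of 93 cytoplasmic ribosomal protein genes (55.9%), 28 of 73 mitochondrial ribosomal protein genes (38.4%) and 8 of 33 aminoacyl-tRNA synthetase genes (24.2%), all counted by symbol. Over the genes with a peak the median signal was 91.3 for translation factors, 105 for cytoplasmic and 106 for mitochondrial ribosomal proteins and 138 for synthetases, against 108 for other protein-coding genes. No difference between families was tested.

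**Figure D3:**
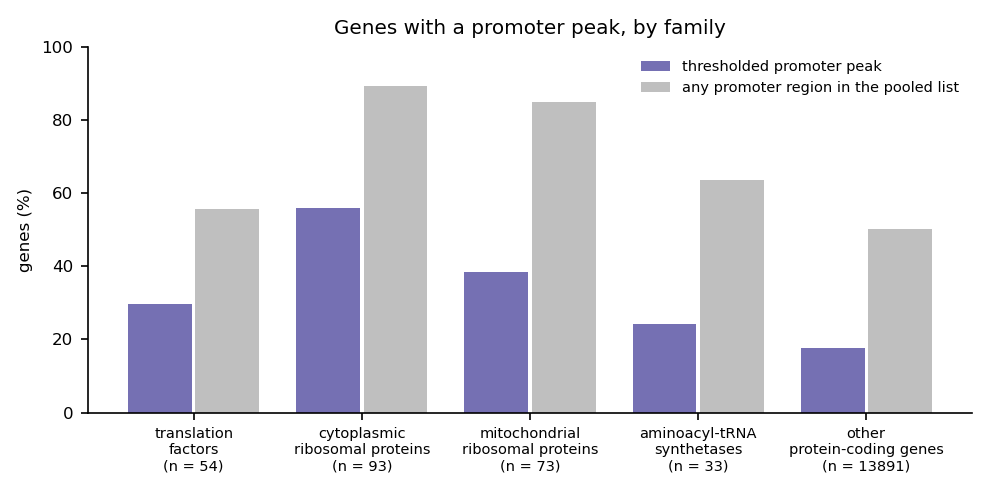
Percent of genes with a thresholded promoter peak (dark bars) and with any promoter region in the pooled list (grey bars), for translation factors, 3 other families of protein synthesis and the other 13891 protein-coding genes. Translation factors stand at 29.6% and 55.6%, and other protein-coding genes at 17.7% and 50.1%.

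Genes with more start sites have more windows in which a summit can fall. Of translation factor genes with 1 TSS position, 6 of 32 had a promoter peak, against 13.4% of other protein-coding genes with 1. With 2 positions it was 7 of 18, against 24.7%, and with 3 or more it was 3 of 4, against 40.0%. The genes with a peak had a median of 2.00 TSS positions, and the 38 without had 1.00.

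By chromosome, 5 of the 15 translation factor genes on 3R had a peak, against 19.4% of all protein-coding genes there, and 4 of 12 on 3L, against 18.8%. On 2R it was 4 of 13, against 16.5%, and on 2L 3 of 6, against 17.7%. None of the 7 on X had one, where 15.5% of all protein-coding genes did. The 1 gene on chromosome 4, eIF4G1, had none either, where 8.75% of all did. The X genes are eIF2alpha, eIF2Bbeta, eIF2Bepsilon, eIF3g1, eIF4E7, eIF4H1 and eIF5.

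Sharing a promoter peak with a neighbour was about as frequent in the translation factor genes as in other genes with a peak. Of the 16 genes with a peak, 10 (62.5%) shared it with the TSS of another gene, against 63.7% of all protein-coding genes with a promoter peak. By pairs of a peak and a gene, the share was 12 of 18 (66.7%), against 61.7% of the 2739 pairs with other protein-coding genes. In 9 genes (56.2%, against 57.4%) a protein-coding neighbour at the peak was on the other strand, with transcription running away from the translation factor gene. In 8 of these, all but eIF3h with senju, a summit lay between both TSSs, which makes 8 of 16, against 49.3% of all protein-coding genes with a promoter peak. At 8 of the 18 peaks (44.4%, against 31.4% of the other pairs) the nearest TSS was the neighbour's: chic, SC35, CG8323, asRNA:CR45928, RpL28, CG1074, Vps39 and CG18428. The lists cannot tell which of the genes a shared peak belongs to.

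**Figure D4:**
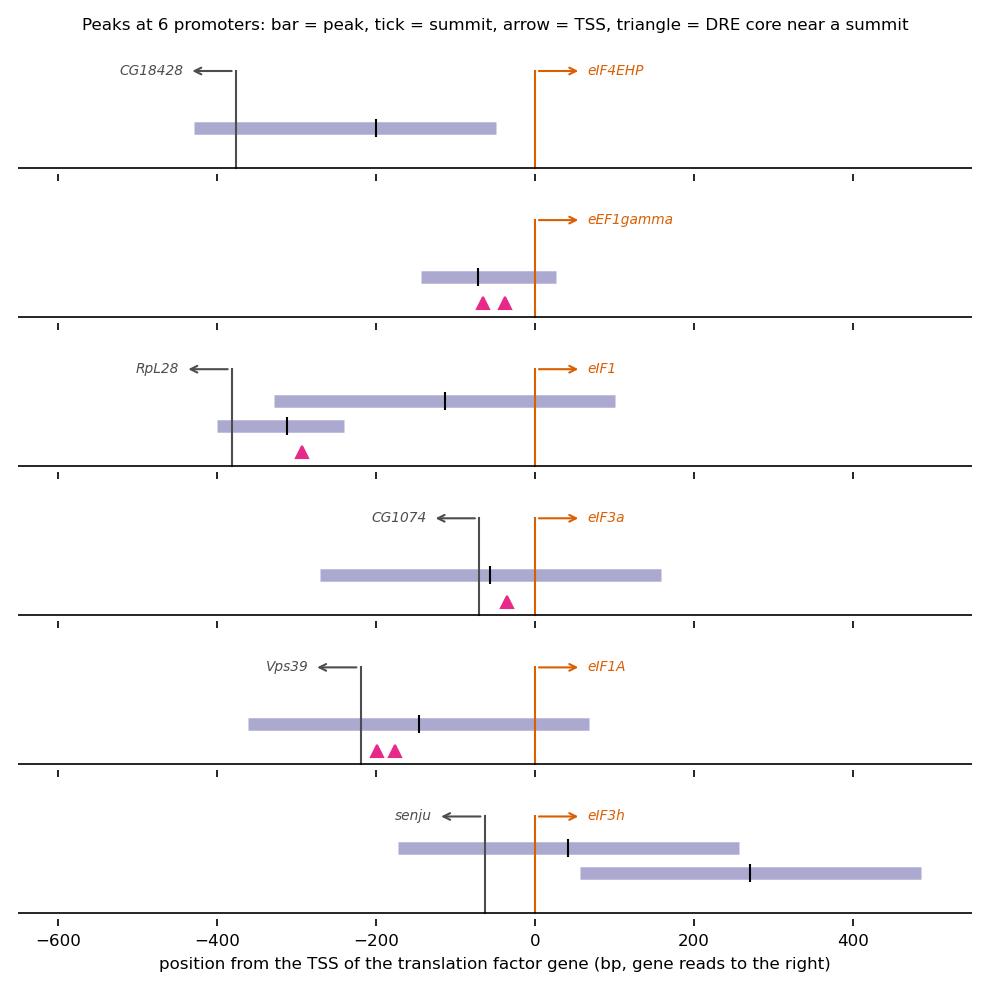
Peaks at 6 translation factor promoters, with positions in bp from the TSS of the translation factor gene, which reads to the right. Bars are thresholded peaks, ticks their summits, bent arrows the TSSs of the translation factor gene and of its protein-coding neighbour, and triangles DRE cores within 100 bp of a summit. In 4 of the 5 genes with a divergent neighbour a summit lies between both TSSs, and at eIF3h both summits lie inside the gene.

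Most summits lay just upstream of the nearest start site of the gene. Of the 18, 15 (83.3%) were upstream, with a median position of -116 bp, against 88.6% and -153 bp over the 2739 pairs of a peak with another protein-coding gene. Between 50 and 150 bp upstream lay 10 of the 18 (55.6%), against 31.3% of the other pairs. The 3 downstream summits were the pair at eIF3h and that at eIF3c. At eEF1alpha1 and eIF5B the summit, though upstream of the nearest TSS, lay in an intron and in a 5' UTR of the gene.

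**Figure D5:**
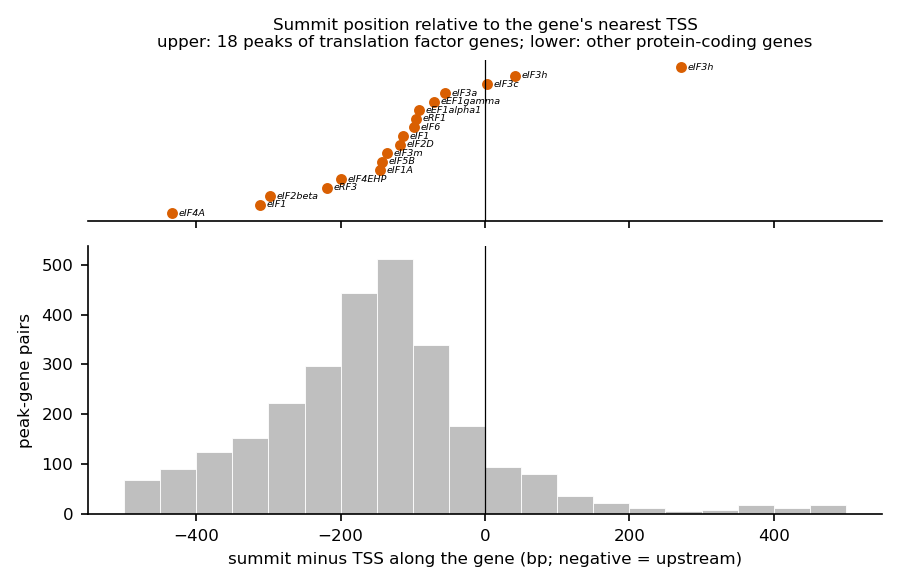
Summit position relative to the nearest TSS of the gene, in bp along the gene with upstream negative. The upper panel shows the 18 peaks of translation factor genes 1 by 1, and the lower panel counts the 2739 pairs of a peak with another protein-coding gene in bins of 50 bp. The translation factor summits run from -433 bp at eIF4A to 271 bp at eIF3h.

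The sequence at the summits was compared in windows that reach 50 bp to each side, on both strands. The DRE, TATCGATA, was in 3 of the 18 windows, those of eEF1gamma, eIF1 and eIF3a shown above, against 2.30% of the windows at the other 2004 promoter peaks. Its core ATCGAT, which every full element contains, was in 4, with eIF1A added, against 6.34%. Of these 4 summits, that of eEF1gamma was nearest to the TSS of eEF1gamma itself. Those of eIF1, eIF3a and eIF1A were nearest to the TSS of the neighbour, namely RpL28, CG1074 and Vps39. With windows that reach 100 bp the element was in 6, with eIF1A, eIF6 and eRF1 added, against 5.49% of the other windows of that length. With 25 bp it was in 2, against 1.35%. The median G+C content of the windows was 36.6%, from 23.8% to 54.5%, against 31.7% elsewhere.

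The other motifs were each in at most 3 windows. TATAAA was in 3, those of eIF6, eIF4EHP and eRF3, against 24.1% of the other windows. Paired BEAF-32 sites, read as CGATA at starts at least 5 bp apart on either strand, were in 2, eEF1gamma and eIF3a, against 3.89%, and they overlap the DRE. GGTCACAC, the core of the promoter element Motif 1, was in the eEF1alpha1 window, against 0.948%, and GAGAG in the eIF3c window, against 9.53%. The E-box CAGCTG was in none, against 3.69% of the other windows. The same was true of the E-box CACGTG, against 0.948%, and of runs of 8 A, against 7.49%. These counts moved with the window. With 100 bp to each side TATAAA was in 6, against 41.0% of the other windows, and paired BEAF-32 sites in 4, against 11.3%. With 25 bp TATAAA was in 1, against 12.8%, and paired BEAF-32 sites in 1, against 1.55%, while Motif 1 and GAGAG were in none, against 0.499% and 4.39%.

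The DRE was also frequent in the promoters themselves, from 250 bp before to 50 bp after the most upstream TSS. It was in 15 of the 54 translation factor promoters (27.8%), against 9.29% of the other 13891. The other families stood at 30.1% for cytoplasmic ribosomal proteins, 20.5% for mitochondrial ribosomal proteins and 15.2% for synthetases. Of the 16 translation factor genes with a promoter peak 7 held it (43.8%), against 8 of the 38 without a peak (21.1%). The 7 are eEF1gamma, eIF1A, eIF3a, eIF3c, eIF4A, eIF6 and eRF1. In the other protein-coding genes the shares were 14.8% with a peak and 8.10% without. For the core ATCGAT the contrast was smaller, at 56.2% of translation factor genes with a peak and 44.7% of those without. In the other protein-coding genes the core was in 30.3% with a peak and 21.7% without. At eIF1 the full element under the peak lies outside this window.

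A pyrimidine-rich initiator, the TCT element, is known from ribosomal protein and some translation factor promoters in the fly. TTCTTT or CTCTTT, on the coding strand within 25 bp of any TSS, was found at 14 of the 54 genes (25.9%), against 5.46% of the other protein-coding genes. The share was 69.9% in cytoplasmic ribosomal proteins and 5.48% in mitochondrial ribosomal proteins. Translation factor genes with and without a peak were alike in share. It was at 4 of 16 with a peak, namely eEF1alpha1, eIF3c, eIF3m and eIF4A. Without a peak it was at 10 of 38, among them eEF1beta, eEF2, eEF5 and eIF3l. In the other protein-coding genes the counts were 195 of 2452 with a peak and 563 of 11439 without. In cytoplasmic ribosomal proteins they were 39 of 52 and 26 of 41. A match is a run of letters, not a mapped site.

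Other genes of translation outside the naming rule were examined as a list, chosen by known function. Of 40 symbols 36 matched a protein-coding gene, and 8 of the 36 (22.2%) had a promoter peak, against the 17.7% of all. Regulators of initiation had one at 4 of 14: larp, for a La-related RNA-binding protein, at 652 (replicate 1 at 276 and replicate 2 at 373), mxt, for a cap-binding scaffold, with 81.7, Gcn2, for a kinase of eIF2alpha, with 78.0, and crc, for the fly ATF4, with 62.9. The signal at larp, rank 38 of 3995, was above that of every one of the 54 genes.

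Ribosome recycling, rescue and quality control had a peak at 3 of 7 genes. pix, the gene for the recycling factor ABCE1, had 86.9, pelo and HBS1, for the pair that rescues stalled ribosomes and is related to eRF1 and eRF3, had 86.3 and 68.8. Nonsense-mediated decay had 1 of 6, Smg5, with 216 (102 in replicate 1 and 119 in replicate 2). None of the 9 matched genes for mitochondrial translation factors had one, the highest pooled signal being 60.3 at mEFTu1, just under the threshold.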

How the data were processed

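Per the README texts, the authors deposited for dm6 a list for each replicate and 1 for the pooled reads, made from the alignments and 1 further file that the control normalized signal also used. From these 3 lists came the set thresholded by irreproducible discovery rate. The signal of each region is the authors' deposited value, in their own units. The aligner, peak caller, depth and chosen cutoff were not given in the sources used here. Lists for dm3 were not used.

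Genes and TSSs came from Ensembl release 115 and sequence from the matching RefSeq assembly. A summit was linked to every gene with a TSS within 500 bp. Regions of a replicate were matched by overlap. Promoter windows and motifs were read from the assembly. Python 3.11.15, NumPy 2.4.6, pandas 2.3.3 and Matplotlib 3.10.9 were used. The link was tested on simulated data. With 1 group, no test was made. Symbols of related genes were matched directly, or through synonyms for nonC (Smg1); Tor, Znf598, mEFG2 and mtRF1 matched no gene.

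The genes, lists and motifs were chosen with earlier results of these data known. Every gene with a promoter peak was to be named, the 6 strongest under the threshold with values, and others by name; weaker ones with values were added after these were seen.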

Additional observations from a re-analysis of the deposited data

How the results depend on the processing

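Over the 31 other settings of the main counts and of the median signal, 27 stayed within 1.5 times. The 4 that did not came from the strongest 1997 thresholded peaks and from summit windows that reach 25 bp to each side. Those peaks gave 7 translation factor genes, 2 related genes and 10.2% of all protein-coding genes. Of the 18 windows, 4 held any motif searched, against 9 at 50 bp. The share of other promoter windows with any motif was not counted. TATAAA alone was in 12.8% of them at 25 bp and 24.1% at 50 bp. Counts of single motifs and ranks of single peaks were not summed up in this way, and some varied more. The rank at eIF5B, as percent of the list, was 13.1 pooled, 7.54 without replicate 2 and 26.5 without replicate 1. With 1 replicate left out, the translation factor genes with a peak numbered 13 to 15, the related genes 7 to 11, all protein-coding genes 17.0% to 18.6%, and translation factor genes with a region in the full list 30 to 39. The share of translation factor genes with a peak was above that of all genes in each setting of distance, start site, summit, threshold and replicate. In the strongest 1997 peaks it was 13.0% against 10.2%. These settings reuse the same 2 libraries and largely the same peaks, so they are not independent, and the difference was not tested. Matches in both replicates were 15 to 18 of 18 with the overlap required. No paired analysis was possible because there is 1 group. Without read counts, a gene in no list may still hold a site too weak to be listed.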
